A study of Mus musculus with 18 samples.

Results

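Matrix metalloproteinases (Mmp genes), ADAMTS proteases (Adamts genes) and tissue inhibitors of metalloproteinases (Timp genes) were taken as every gene whose name fits the numbered pattern of these 3 families, which gave 46 genes of 39056 named genes. They comprise 23 Mmp, 19 Adamts and 4 Timp genes. Of the 46, 44 were in the deposited count table of 28684 genes, and 39 had at least 10 counts in 3 or more of the 18 libraries and were tested among 17514 genes. The tested members were 17 Mmp, 18 Adamts and 4 Timp genes. Mmp1a and Mmp1b were not in the count table, and 5 members had too few counts for a test: Adamts13 with 27 counts over all 18 libraries, Mmp7 with 2, Mmp10 with 6, Mmp20 with 1 and Mmp21 with 2.

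RNA was sequenced in bulk from the sciatic nerve, which carries axons with their Schwann cells, and from the L3-L5 dorsal root ganglia (DRG), home of the sensory neuron cell bodies, of C57BL/6 mice. Each tissue was taken at 3 stages, namely no disease, peak disease (PID21) and recovery (PID42), with 3 libraries in each of the 6 groups. The labels give no genotype, transgene, age or sex for any group. The method of inducing disease and the meaning of PID were not given in the sources used. Whether each library is its own animal is also not given, so p-values cover only the spread among these libraries, which may be technical. The series title frames the question as which sensory neurons are vulnerable when axons and glia lose contact, and the stages were compared within each tissue.

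Mmp and Adamts proteins are zinc-dependent proteases that cut the extracellular matrix around cells. Most Mmp proteins are made as inactive precursors, and Mmp14 at the cell surface activates the Mmp2 precursor with the help of Timp2. Adamts proteins fall into groups by substrate: proteoglycanases cut aggrecan and versican, and procollagen peptidases trim fibrillar collagens during their assembly. Timp proteins bind and block the active proteases. In injured nerve these proteases are known for opening the blood-nerve barrier, for cutting myelin proteins and for reshaping the matrix through which axons regrow.

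Total counts per library ran from 13686465 to 23435562, and changes are given as log2 fold changes ± SE from edgeR's quasi-likelihood F test, with Benjamini-Hochberg adjusted p-values taken over all 17514 genes. A gene was called at an adjusted p under 0.05. Shares of all genes tested are at that threshold. Counts of genes at an unadjusted p under 0.05 have no such share beside them and cannot be set against these shares. Levels are CPM, counts scaled to a common library total, after TMM scaling within a tissue, given for replicates 1, 2 and 3 of a group, and as mean ± SD (n = 3) where averaged. The 7 Schwann cell markers summed to 10668, 18661 and 17895 CPM in no disease nerve, and the 8 sensory neuron markers to 12294, 10368 and 11882 CPM in no disease DRG. A few libraries stood apart in levels that touch the members. The no disease nerve libraries differed in the sum of the same sensory neuron markers (456, 154 and 111 CPM) and of 6 skeletal muscle markers (183, 641 and 342 CPM, against 3.94, 34.5 and 5.18 CPM at peak). DRG recovery replicate 1 had a sum of 10 macrophage markers of 149.5 CPM, against 276 and 261 CPM in replicates 2 and 3. The skeletal muscle markers summed to 242 CPM in DRG no disease replicate 3, against 4.95 and 3.54 CPM in replicates 1 and 2. Nerve peak replicate 2 had 236 CPM of 5 mast cell markers (replicates 1 and 3, 50.8 and 100 CPM). It had 99.1 CPM of 4 adipocyte markers (replicates 1 and 3, 277 and 643 CPM). In bulk tissue, fewer cells of a type and less RNA per cell cannot be told apart.

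In tissue with no disease, Timp3, Timp2 and Mmp2 stood above the other members in nerve. Levels of different genes were compared per kb of exon, with all 18 libraries scaled together. In no disease nerve Timp3, an inhibitor bound to the matrix, had 143 ± 13.4 CPM per kb, Timp2 108 ± 15.7 and the gelatinase Mmp2 105 ± 24.4. The libraries of Timp2 ran from 94.5 to 125 and those of Mmp2 from 85.2 to 132 CPM per kb, so they overlapped, and the highest Mmp2 library also lay inside the range of Timp3, from 128 to 152. The order of Timp3 and Mmp2, and of Timp2 and Mmp2, is therefore not clear of their spread. Next came the aggrecanase Adamts5 with 19.02 ± 3.92 CPM per kb, followed by Adamts1 with 18.2 ± 5.76, Timp1 with 17.8 ± 14.03 and Mmp15 with 17.2 ± 5.41, all with overlapping libraries. In no disease DRG the order was Timp2 with 63.97 ± 2.91 CPM per kb, Timp3 with 44.4 ± 5.08, Mmp15 with 9.94 ± 0.425, Adamts5 with 8.35 ± 0.795 and Mmp2 with 7.54 ± 0.468, of which Adamts5 and Mmp2 overlapped.

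**Figure D1:**
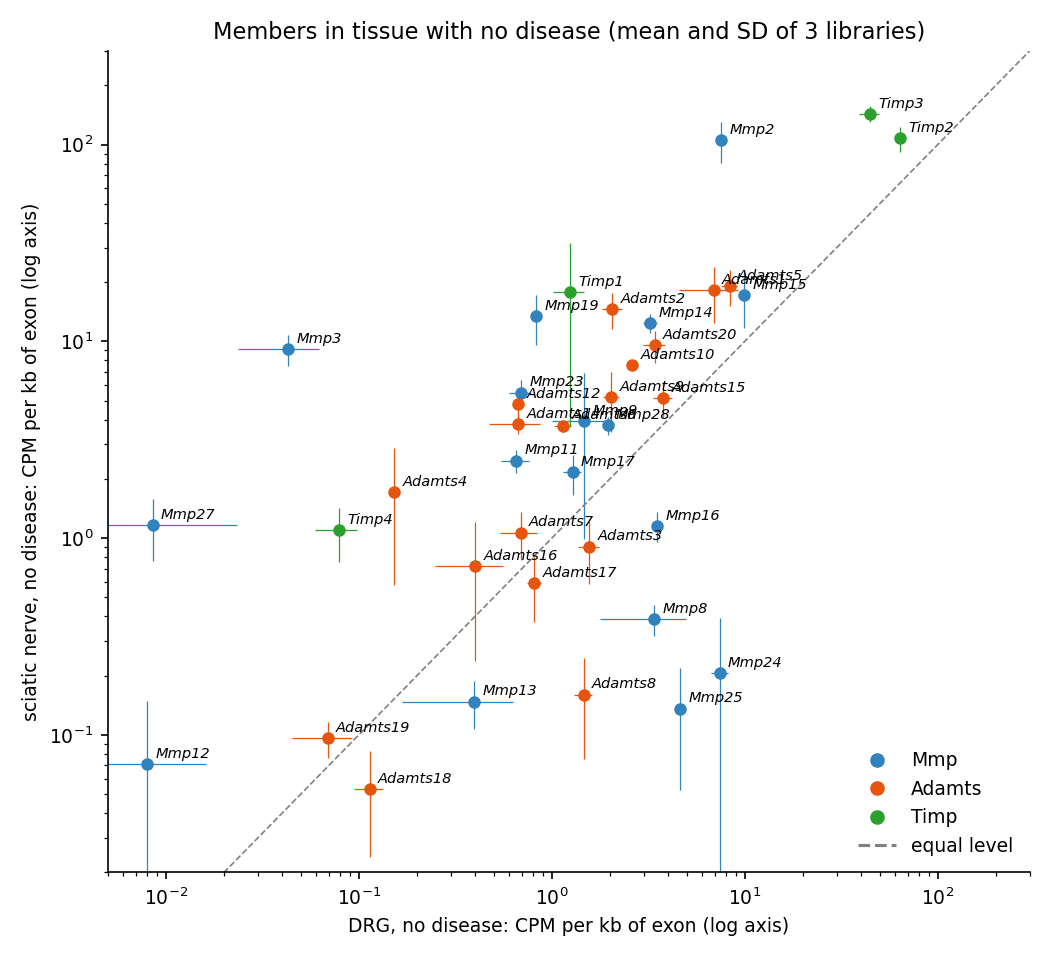
Each point is 1 tested member, with its level in no disease DRG on the horizontal log axis and in no disease sciatic nerve on the vertical log axis, both in CPM per kb of exon. Points are means and bars SD of 3 libraries, with lower bars that would reach 0 cut short; 27 members were called higher in nerve and 7 higher in DRG, and Timp3, Timp2 and Mmp2 lie highest in nerve.

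Between the tissues with no disease, 27 of 39 members were called higher in nerve and 7 higher in DRG, where 73.8% of all genes tested were called, 37% higher in nerve and 36.7% higher in DRG. The median log2 difference, nerve minus DRG, was 1.40 over the members and 0.04 over all genes tested. All 4 Timp genes were higher in nerve, with log2 differences of 3.83 ± 0.62 for Timp1, 0.75 ± 0.13 for Timp2, 1.69 ± 0.14 for Timp3 and 3.77 ± 0.64 for Timp4 (adjusted p = 3.75e-05, 4.68e-05, 1.39e-08 and 5.55e-05). Without nerve no disease replicate 1 the difference of Timp1 was 4.34, and without replicate 3 it was 3.12. Mmp19, Mmp2 and Mmp14 were also higher in nerve, by 4.01, 3.8 and 1.94 (adjusted p = 1.15e-09, 3.71e-11 and 1.15e-09). Stromelysin-type Mmp3 had 19.9, 15.2 and 14.5 CPM in nerve and 0.0566, 0.0584 and 0.118 CPM in DRG on the scale over 18 libraries. Its nerve libraries lay far above its DRG libraries, which held 4 counts in all (7.62 ± 0.48, adjusted p = 3.05e-09). Mmp27 had 119 counts in nerve against 1 in DRG, a ratio of 138 with a 95% counting interval of 24.3 to 5490. Mmp12 had 26 counts in nerve against 3 in DRG, a ratio of 10 with a 95% interval of 3.07 to 51.8, and its groups overlapped.

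The 7 members higher in DRG were Mmp24, Mmp25, Adamts8, Mmp8, Mmp16, Adamts18 and Adamts3. Mmp24, a membrane-anchored protease enriched in the nervous system, had 37.7, 30.8 and 35.5 CPM in DRG and 1.95, 0.622 and 0.312 CPM in nerve. Every DRG library lay above every nerve library (-5.09 ± 0.39, adjusted p = 5.7e-09; -6.27 without nerve replicate 1). Mmp25, which is held in the membrane by a lipid anchor, had 24.9, 25.2 and 23.6 CPM in DRG and 1.15, 0.267 and 0.748 CPM in nerve, again without overlap (-4.98 ± 0.34, adjusted p = 1.44e-09). Mmp8, the collagenase of neutrophils, was lower in nerve by a log2 difference of -3.12 ± 0.79 (adjusted p = 0.00217). With limma-voom it was not called (adjusted p = 0.0574), as was the case for Mmp12 (0.193). The 9 neutrophil markers summed to 10.8, 9.299 and 24.9 CPM in nerve and 196, 65.97 and 178 CPM in DRG. The part of these cells in the Mmp8 difference was not tested. The call of Mmp9, higher in nerve at 1.43 ± 0.47 (adjusted p = 0.0117), ended without nerve no disease replicate 1 (adjusted p = 0.201) and without DRG no disease replicate 2 (0.0552), and those of Adamts7, Adamts18 and Mmp12 ended without 3 of the 6 libraries each.

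At peak disease proteases of both families changed in nerve in both directions, and no inhibitor passed the test. Of 39 members tested, 10 rose and 6 fell against no disease, where 24.6% of all genes tested were called, 13.8% higher and 10.8% lower. By family, 5 Mmp genes rose and 2 fell, 5 Adamts genes rose and 4 fell, and 0 of 4 Timp genes passed the test. The median log2 fold change was 0.07 over the members and 0.00 over all genes tested. The rises ran from 0.42 ± 0.11 to 4.83 ± 0.67 and the falls from -0.50 ± 0.10 to -2.47 ± 0.45 on the log2 scale.

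**Figure D2:**
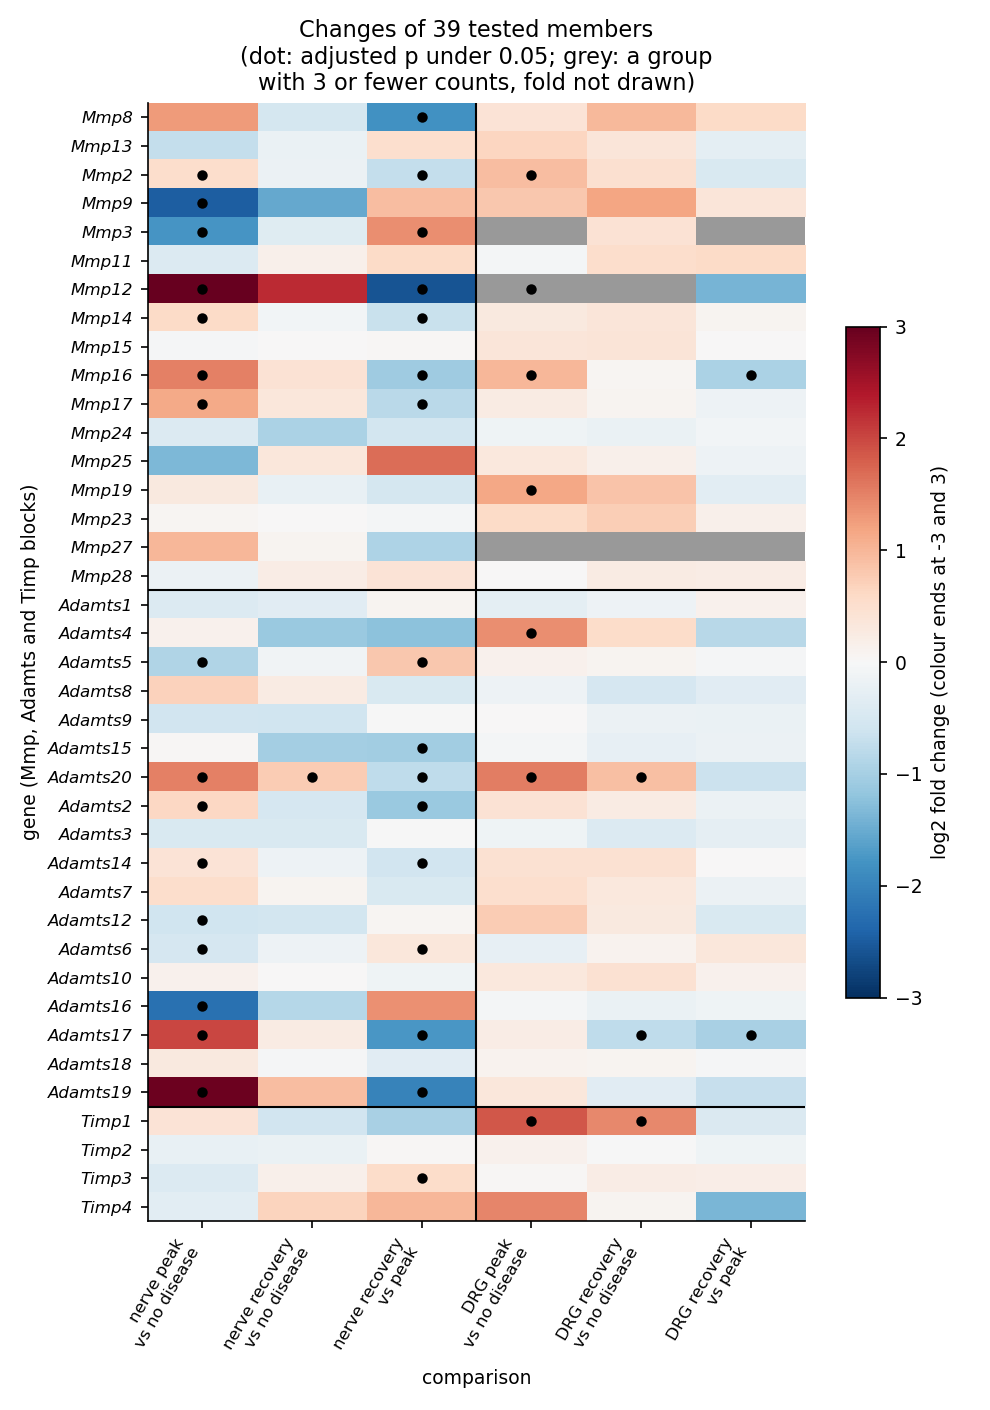
Rows are the 39 tested members in Mmp, Adamts and Timp blocks and columns are the 6 comparisons between stages, 3 per tissue; colour is the log2 fold change and a dot marks an adjusted p under 0.05. Grey cells have 3 or fewer counts in a group. In nerve 16 members carry a dot at peak against no disease, 1 at recovery against no disease and 16 at recovery against peak, and in DRG 7, 3 and 2.

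The largest rise was that of Mmp12 (ENSMUSG00000049723, GRCm38 chromosome 9, 7344381 to 7369499), the elastase of macrophages. Its level was 1.13, 0.0912 and 0.323 CPM in no disease libraries and 10.02, 28.95 and 10.3 CPM at peak. All peak libraries lay above all no disease libraries, and replicate 2 was the highest of them (log2 fold change 4.83 ± 0.67, adjusted p = 0.000773). Leaving out 1 library at a time gave log2 fold changes from 4.14 (without peak replicate 2) to 6.14 (without no disease replicate 1). The 10 macrophage markers summed to 1332, 889 and 915 CPM in no disease libraries and 1842, 2029 and 1322 CPM at peak, and 7 of them rose and 1 fell; none was at 0 in a group. Their part in the rise of Mmp12 was not tested. Exons of Mmp12 overlap those of Mmp1b on the other strand, and it is not known here whether the counting used strand.

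Mmp3, a stromelysin that cuts matrix proteins and activates other Mmp precursors, moved the other way. It had 19.7, 15.6 and 14.98 CPM in no disease libraries and 3.85, 4.67 and 6.23 CPM at peak, without overlap (log2 fold change -1.76 ± 0.26, adjusted p = 0.000983). Mmp12 and Mmp3 stand in the same cluster of Mmp genes on chromosome 9. The stretch before the start of 3 tested genes of this cluster is printed here, because they share a short motif while their levels differed. Each is 120 bases ending at the base before a RefSeq start on GRCm38.p6, written 5′ to 3′ on the plus strand of the genome, on which all 3 genes lie, and capitals mark TGACTCA or TGAGTCA, the reverse complement of each other, the site known for AP-1 factors.
Mmp12, chr9:7347254-7347373: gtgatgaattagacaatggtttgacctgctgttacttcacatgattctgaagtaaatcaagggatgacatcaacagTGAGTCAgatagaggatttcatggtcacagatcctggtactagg
Mmp3, chr9:7445702-7445821: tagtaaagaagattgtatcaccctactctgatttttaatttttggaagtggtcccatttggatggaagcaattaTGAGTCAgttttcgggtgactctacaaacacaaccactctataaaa
Mmp13, chr9:7272394-7272513: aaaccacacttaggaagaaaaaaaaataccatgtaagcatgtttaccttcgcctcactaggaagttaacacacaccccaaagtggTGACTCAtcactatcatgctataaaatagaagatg
The motif began 46 bases before the start in Mmp3, 35 in Mmp13 and 44 before the printed start of Mmp12. RefSeq gives Mmp12 a further start, upstream of the printed one and near the gene start given above, and the window at that start, chr9:7344147-7344446, does not hold these letters. The data do not tell which start was used.

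Promoter windows of 300 bases, from 250 before to 50 after the start, were at hand for 32 member genes. No window was at hand for Mmp2, Mmp9, Mmp16, Mmp17, Mmp19, Adamts4, Adamts5, Adamts6, Adamts7, Adamts8, Adamts10, Adamts15, Adamts16 or Adamts19. These genes, all outside the cluster, were not searched. The motif stood in 7 of 12 windows of the chromosome 9 cluster and in 0 of 23 windows of members elsewhere, against 5.2% of all 32851 windows. By gene, 7 of 10 in the cluster had it in at least 1 window (Mmp13, Mmp12, Mmp1b, Mmp3, Mmp1a, Mmp10 and Mmp7), against 5.95% of all genes with a window, and Mmp12 and Mmp7 each had it in 1 of their 2 windows. A match is a description of letters only. Of the genes with the motif, Mmp12 rose and Mmp3 fell at peak. Mmp13, a collagenase, had 0.5097, 0.365 and 0.323 CPM in no disease libraries and 0.285, 0.342 and 0.125 CPM at peak and was not called (adjusted p = 0.421). These levels are 18 counts over the no disease and 15 over the peak libraries, too few to read the missing call as no change. The other tested genes of the cluster, Mmp8 and Mmp27, lacked these letters in their windows and had log2 fold changes of 1.27 ± 0.46 (adjusted p = 0.0704) and 1.01 ± 0.34 (adjusted p = 0.055). Both were called higher without peak replicate 3. Mmp27 was also called higher with DESeq2, with no filter, with the replicate number as a block, without no disease replicate 1 and in the authors' deposited table.

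The gelatinases Mmp2 and Mmp9 changed in opposite directions. Mmp2 (ENSMUSG00000031740, GRCm38 chromosome 8, 92827291 to 92853420) had 441, 339.6 and 297 CPM in no disease libraries and 575, 485 and 497 CPM at peak. The groups did not overlap, although the highest no disease library, replicate 1, lay close to the lowest peak library (log2 fold change 0.53 ± 0.14, adjusted p = 0.0201). At peak Mmp2 had 145 ± 13.9 CPM per kb of exon, above Timp3 with 103 ± 21.1 and Timp2 with 87.3 ± 4.34. Mmp9 (ENSMUSG00000017737, GRCm38 chromosome 2, 164940780 to 164955850) had 25.7, 8.93 and 7.42 CPM in no disease libraries and 3.09, 1.82 and 2.68 CPM at peak, without overlap, and replicate 1 was the highest no disease library (log2 fold change -2.47 ± 0.45, adjusted p = 0.00358). Without that library the log2 fold change was -1.68. The 9 neutrophil markers summed to 10.8, 9.299 and 24.9 CPM in no disease libraries and 0.760, 2.28 and 0.4599 CPM at peak, where Ly6g was at 0, and S100a8 and S100a9 fell; their part in the fall of Mmp9 was not tested. The call of Mmp2 ended without no disease replicate 2 or 3 or peak replicate 1 (adjusted p = 0.072, 0.0667 and 0.0707).

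Of 6 membrane-type proteases tested, 3 rose and 0 fell, beside 13.8% and 10.8% of all genes tested. Mmp16, anchored by a transmembrane segment, had 10.7, 11.4 and 8.26 CPM in no disease libraries and 25.6, 35.3 and 24.9 CPM at peak (log2 fold change 1.50 ± 0.17, adjusted p = 0.000226). Mmp17, held by a lipid anchor, had 10.7, 17.9 and 15.2 CPM in no disease libraries and 33.1, 23.4 and 39.5 CPM at peak (log2 fold change 1.15 ± 0.25, adjusted p = 0.00856). The Mmp2 activator Mmp14 had 80.4, 77.9 and 67.0 CPM in no disease libraries and 118, 111 and 107 CPM at peak (log2 fold change 0.58 ± 0.12, adjusted p = 0.0064). In each of the 3 the groups did not overlap. Mmp15, Mmp24 and Mmp25 were not called, with log2 fold changes of -0.04 ± 0.29, -0.41 ± 0.67 and -1.35 ± 0.57. Mmp24 shares exonic bases with another gene. Counts were low for Mmp24 (46 over no disease and 46 over peak libraries) and Mmp25 (35 and 18), which limits what a missing call says. At an unadjusted p under 0.05 there was 1 lower membrane-type gene, and DESeq2 and limma-voom called 0 lower.

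**Figure D3:**
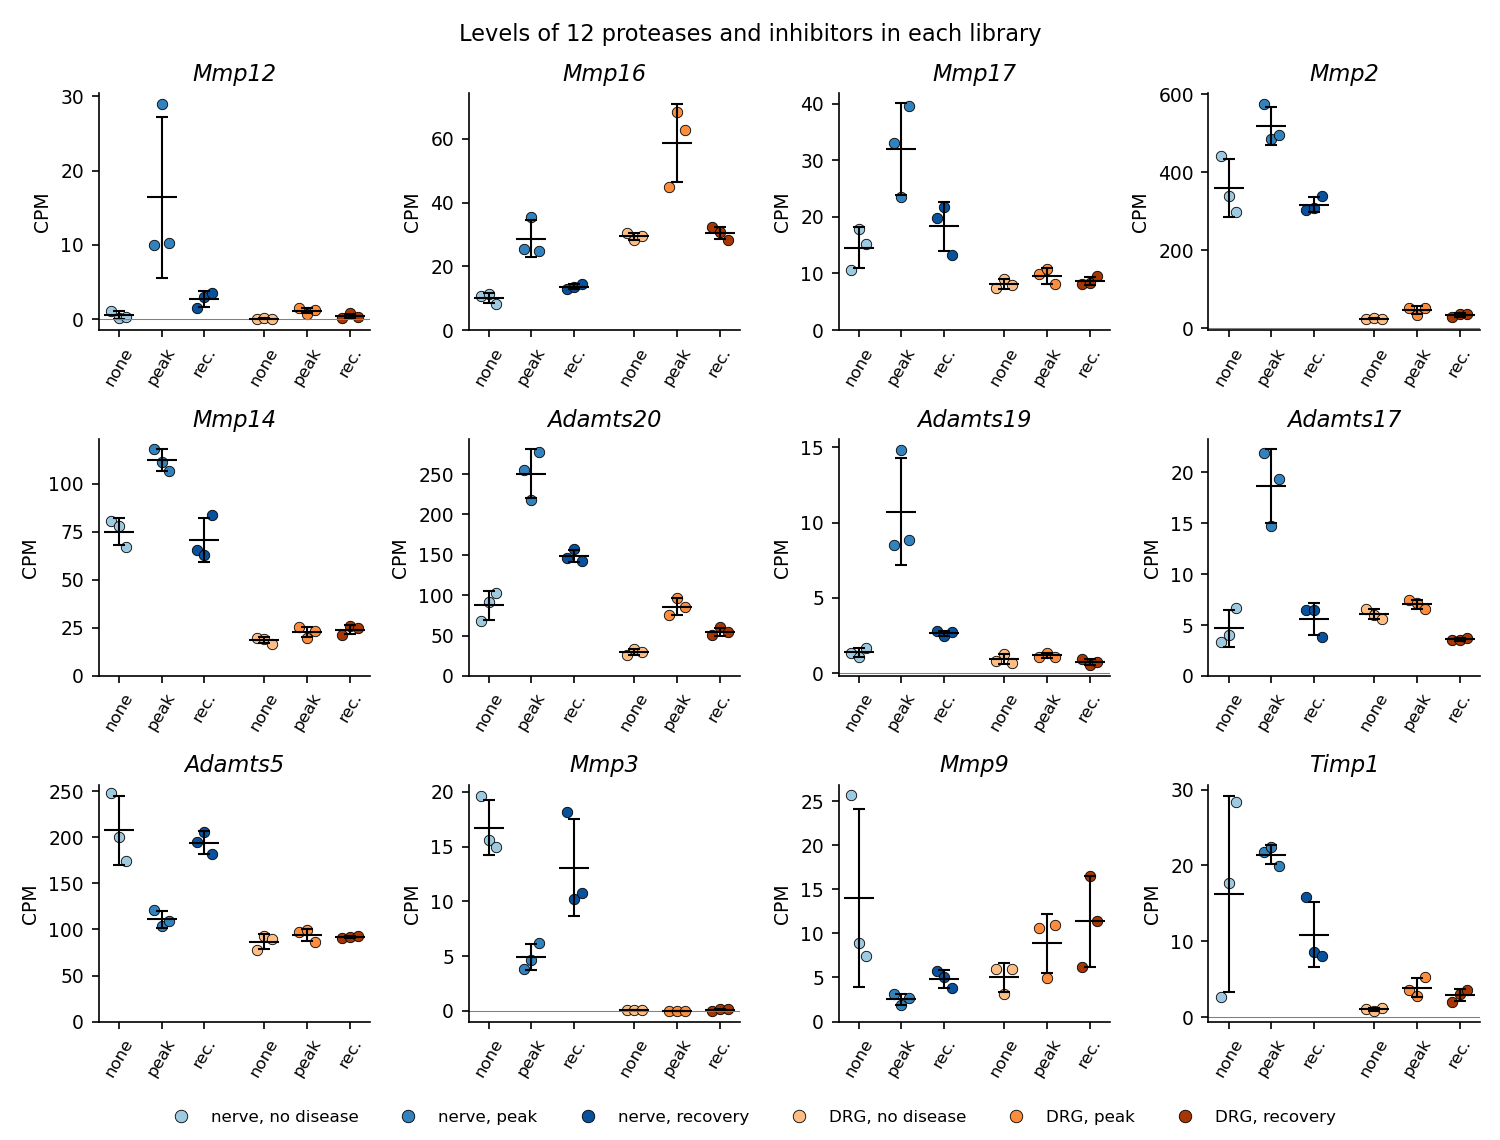
Each panel is 1 gene, with its level in CPM on the vertical axis and the 3 stages of sciatic nerve (blue) and DRG (orange) on the horizontal axis. Points are libraries, and bars are the mean ± SD of 3 libraries. Adamts20 reaches 250.3 ± 30.2 CPM in nerve at peak, while Mmp3 and Adamts5 have their lowest nerve group at peak.

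Among the proteoglycanases, Adamts20 rose and Adamts5 fell. Adamts20 (ENSMUSG00000022449, GRCm38 chromosome 15, 94270163 to 94465418), a versican-cutting protease, had 67.9, 91.6 and 103 CPM in no disease libraries and 255, 218 and 278 CPM at peak. Each peak library held more than 2 times the highest no disease library (log2 fold change 1.52 ± 0.15, adjusted p = 0.000109). Adamts5 (ENSMUSG00000022894, GRCm38 chromosome 16, 85856173 to 85901828), which cuts aggrecan and versican, had 248, 201 and 175 CPM in no disease libraries and 122, 104 and 109 CPM at peak. Its 3 peak libraries lay below every no disease library (log2 fold change -0.90 ± 0.13, adjusted p = 0.000841). The other 5 proteoglycanases tested (Adamts1, Adamts4, Adamts8, Adamts9 and Adamts15) were not called, with log2 fold changes from -0.58 to 0.70. The 5 endothelium markers summed to 368, 386 and 380 CPM in no disease libraries and 192, 111 and 284 CPM at peak. For the 4 perineurium markers the sums were 802, 867 and 907 CPM and 575, 452 and 704 CPM. The part of these cells in the fall of Adamts5 or of other members was not tested.

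The procollagen peptidases Adamts2 and Adamts14 rose, and Adamts3 was not called. Adamts2 had 165, 131 and 118 CPM in no disease libraries and 224, 208 and 205 CPM at peak, without overlap (log2 fold change 0.62 ± 0.12, adjusted p = 0.00395). Adamts14 had 19.1, 18.3 and 22.9 CPM in no disease libraries and 25.4, 27.2 and 28.1 CPM at peak (log2 fold change 0.42 ± 0.11, adjusted p = 0.0197). Its groups did not overlap either. Adamts3 had 6.85, 4.102 and 3.94 CPM and 4.27, 2.62 and 3.97 CPM, which overlapped (adjusted p = 0.256). The 7 fibroblast markers summed to 12661, 11404 and 10831 CPM in no disease libraries and 17092, 16678 and 14856 CPM at peak; Col1a1, Col1a2 and Lum rose while Pdgfra, Dpt and Pi16 fell, none was at 0, and their part in these changes was not tested. The call of Adamts14 ended without no disease replicate 1 or 2 or peak replicate 2, and that of both Adamts14 and Adamts2 in 1 fit of all 18 libraries.

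Of the 8 other Adamts genes tested, 2 rose and 3 fell, beside 13.8% and 10.8% of all genes tested. Adamts19 had 1.36, 1.09 and 1.68 CPM in no disease libraries and 8.502, 14.8 and 8.82 CPM at peak, the second largest rise of the members (log2 fold change 2.93 ± 0.27, adjusted p = 7.87e-05). Adamts17, which is linked to the fibrillin matrix, had 3.28, 4.01 and 6.71 CPM in no disease libraries and 21.9, 14.7 and 19.4 CPM at peak (log2 fold change 2.00 ± 0.29, adjusted p = 0.00106). Both lacked any overlap between the groups. Adamts16 had 8.49, 4.102 and 2.26 CPM in no disease libraries and 1.33, 0.684 and 1.13 CPM at peak, lower in all peak libraries (log2 fold change -2.23 ± 0.46, adjusted p = 0.00697). Without no disease replicate 1, its highest library, the log2 fold change was -1.56. Adamts6, a relative of the fibrillin-binding Adamts10, had 26.96, 31.9 and 29.8 CPM in no disease libraries and 21.7, 20.3 and 20.8 CPM at peak (log2 fold change -0.50 ± 0.10, adjusted p = 0.00646).

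Adamts12, which can cut the cartilage matrix protein Comp, had 61.4, 53.9 and 43.8 CPM in no disease libraries and 44.1, 25.4 and 35.5 CPM at peak. The groups touched, since peak replicate 1 lay just above no disease replicate 3 (log2 fold change -0.60 ± 0.19, adjusted p = 0.0399). Its call ended without no disease replicate 1 or 2 or peak replicate 2 or 3, with adjusted p from 0.0644 to 0.113. Adamts7, Adamts10 and Adamts18 were not called, with log2 fold changes of 0.54 ± 0.22, 0.14 ± 0.08 and 0.30 ± 0.43.

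None of the 4 inhibitors passed the test in nerve at peak, where an unadjusted p was under 0.05 for 0 higher and 2 lower genes. Timp1, the inhibitor known to be induced in injured nerve, had 2.61, 17.7 and 28.4 CPM in no disease libraries and 21.8, 22.4 and 19.98 CPM at peak. No disease replicate 1 lay far below the others and the groups overlapped (log2 fold change 0.41 ± 0.58, adjusted p = 0.649); without that library the log2 fold change was -0.12. Timp2 had 481, 414 and 381 CPM and 378, 340.0 and 367 CPM, lower in every peak library but not called (log2 fold change -0.23 ± 0.10, adjusted p = 0.113). Timp3 had 1028, 1268 and 1264 CPM in no disease libraries and 947, 675 and 1044 CPM at peak, where replicate 3 lay inside the no disease range (log2 fold change -0.42 ± 0.15, adjusted p = 0.073). DESeq2 called Timp3 lower (adjusted p = 0.0245), as did the fit without no disease replicate 1 (0.046), the fit without peak replicate 3 (0.0281) and edgeR on all 18 libraries or with no filter, while limma-voom did not. Timp4 had 5.32, 8.93 and 5.42 CPM and 4.46, 1.82 and 9.16 CPM, overlapping (log2 fold change -0.32 ± 0.50, adjusted p = 0.688). Exons of Timp3 and Timp4 overlap those of the synapsin genes Syn3 and Syn2.

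In nerve few members were called between recovery and no disease. Of 39 members, 1 was higher (Adamts20) and 0 lower than with no disease, where 0.908% of all genes tested were called, 0.577% higher and 0.331% lower. At an unadjusted p under 0.05 there were 4 higher and 5 lower, and DESeq2 called 3 lower (Adamts2, Adamts15 and Mmp9) and limma-voom 0. The authors' deposited table calls 2 higher and 4 lower, of which 1 was called here and 5 (Adamts2, Adamts12, Adamts15, Mmp9 and Mmp12) were not. Adamts20 had 146, 157 and 143 CPM in recovery, above every no disease library and below every peak library (log2 fold change 0.76 ± 0.15, adjusted p = 0.0451). The call was close to the threshold: with the replicate number as a block its adjusted p was 0.0543, with limma-voom 0.061, and without any 1 of the 6 libraries it was 0.0532 to 0.184. Mmp12 in recovery had 1.52, 3.01 and 3.58 CPM, above every no disease library but not called (log2 fold change 2.24 ± 0.70, adjusted p = 0.2).

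Among the other members followed in every comparison, Mmp2 had 304, 308 and 339.9 CPM in nerve in recovery (log2 fold change -0.18 ± 0.14, adjusted p = 0.655, against no disease). Mmp14 had 65.5, 62.98 and 83.8 CPM (log2 fold change -0.09 ± 0.12, adjusted p = 0.83), and Mmp9 had 5.77, 5.09 and 3.77 CPM (log2 fold change -1.54 ± 0.43, adjusted p = 0.154). The recovery range overlapped that of no disease for Mmp2 and Mmp14, while the 3 recovery libraries of Mmp9 lay below every no disease library. Timp1 had 15.8, 8.65 and 8.12 CPM, Timp2 352, 367 and 387, Timp3 1312, 1366 and 1254 and Timp4 12.6, 5.64 and 12.7 CPM. Their log2 fold changes against no disease were -0.57 ± 0.59, -0.21 ± 0.10, 0.14 ± 0.15 and 0.67 ± 0.49, and the lowest adjusted p among them was 0.43.

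Against peak, 12 of 39 members were lower in recovery nerve and 4 higher, where 16.5% of all genes tested were called, 10% lower and 6.45% higher. The comparison shares its peak libraries with that of peak and no disease. The log2 fold changes of members lower in recovery were, for Mmp12, -2.59 ± 0.54, for Adamts19 -2.01 ± 0.25, for Adamts17 -1.74 ± 0.28, for Adamts2 -1.12 ± 0.12, for Mmp16 -1.06 ± 0.16, for Mmp17 -0.81 ± 0.24, for Adamts20 -0.75 ± 0.15, for Mmp2 -0.71 ± 0.14, for Mmp14 -0.66 ± 0.12 and for Adamts14 -0.56 ± 0.11. Adamts17 had 6.48, 6.52 and 3.81 CPM and Adamts19 2.78, 2.46 and 2.72 CPM in recovery, below all of their peak libraries. Adamts2 had 98.4, 97.2 and 96.9 CPM, below its no disease libraries as well as its peak libraries. Mmp16 had 12.95, 13.6 and 14.5 CPM, Mmp17 19.9, 21.7 and 13.3 CPM and Adamts14 19.5, 17.5 and 17.6 CPM, each group below its peak group.

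Mmp8 and Adamts15 were the other members lower in recovery nerve than at peak. Mmp8 had 0.793, 0.912 and 1.16 CPM in no disease libraries, 2.14, 3.76 and 1.13 CPM at peak and 0.925, 0.657 and 0.408 CPM in recovery (log2 fold change -1.81 ± 0.47, adjusted p = 0.0267, recovery against peak). Adamts15, a proteoglycanase, had 45.9, 67.6 and 49.5 CPM, then 74.2, 37.7 and 53.5 CPM at peak and 25.7, 21.4 and 32.9 CPM in recovery (log2 fold change -1.05 ± 0.25, adjusted p = 0.019). In both, all recovery libraries lay below all peak libraries. The members higher in recovery than at peak were Mmp3 with 18.2, 10.2 and 10.8 CPM (log2 fold change 1.40 ± 0.25, adjusted p = 0.00594), Adamts5 with 195, 206 and 181 CPM (log2 fold change 0.80 ± 0.13, adjusted p = 0.00299), Adamts6 with 26.3, 29.1 and 24.5 CPM (log2 fold change 0.35 ± 0.10, adjusted p = 0.0422) and Timp3 (log2 fold change 0.56 ± 0.15, adjusted p = 0.0336). Calls of Timp3, Adamts6, Mmp17, Adamts15 and Mmp8 ended in 3 or more of the 6 fits without 1 library, with adjusted p up to 0.156 for Adamts6, and that of Mmp12 without recovery replicate 1 (0.0507). Without peak replicate 2 the log2 fold change of Mmp12 was -1.91. DESeq2 called 7 higher, adding Adamts16, Mmp11 and Mmp25. Timp1, Timp2, Timp4 and Mmp9 were not called, at log2 fold changes of -0.98, 0.03, 0.98 and 0.93 (adjusted p = 0.277, 0.876, 0.195 and 0.184). The authors' deposited table does call Timp1 and Mmp9 in this comparison.

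In DRG at peak the members that passed the test all rose. Of 39 members, 7 were higher and 0 lower, where 7.2% of all genes tested were called, 3.74% higher and 3.46% lower. At an unadjusted p under 0.05 there were 12 higher and 0 lower, and DESeq2 and limma-voom also called 0 lower. The median log2 fold change was 0.32 over the members, also with Mmp3, which was at 0 in the peak libraries, put at its counting limit of 3 counts over the group, and 0.00 over all genes tested. Without DRG no disease replicate 1 the count was 3 (Mmp16, Adamts20 and Timp1), and without replicate 3 it was 4.

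Adamts20 had the smallest adjusted p of the members in DRG at peak. It had 26.1, 33.5 and 28.98 CPM in no disease libraries and 75.1, 96.01 and 85.9 CPM at peak (log2 fold change 1.54 ± 0.12, adjusted p = 0.000386). Each peak library held more than 2 times the highest no disease library. Mmp16 had 30.4, 28.3 and 29.6 CPM in no disease libraries and 45.01, 68.5 and 62.9 CPM at peak, without overlap (log2 fold change 1.00 ± 0.14, adjusted p = 0.00402). Mmp2 had 23.1, 26.1 and 24.1 CPM in no disease libraries and 51.9, 34.96 and 52.9 CPM at peak, again without overlap (log2 fold change 0.93 ± 0.16, adjusted p = 0.00904). The call of Mmp2 ended without no disease replicate 1 (adjusted p = 0.0528).

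The inhibitor Timp1 (ENSMUSG00000001131, GRCm38 chromosome X, 20870166 to 20874735) rose in DRG from 1.14, 0.842 and 1.19 CPM with no disease to 3.62, 2.85 and 5.25 CPM at peak. All peak libraries lay above all no disease libraries (log2 fold change 1.87 ± 0.32, adjusted p = 0.00866), and in 1 fit of all 18 libraries the adjusted p was 0.106. Timp2 had 248, 227 and 244 CPM in no disease libraries and 275, 291 and 218 CPM at peak (log2 fold change 0.13 ± 0.13, adjusted p = 0.586). Timp3 had 305, 354 and 384 and 366, 323 and 374 CPM (log2 fold change 0.03 ± 0.10, adjusted p = 0.902), and Timp4 0.435, 0.561 and 0.3403 and 2.48, 0.496 and 0.729 CPM (log2 fold change 1.45 ± 0.57, adjusted p = 0.145). For Timp2, Timp3 and Timp4 the groups overlapped and no change was called.

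Mmp12 was near the limit of counting in DRG, with 3 counts over the no disease libraries and 51 over the peak libraries, or 0.0544, 0.112 and 0 and 1.48, 0.744 and 1.24 CPM. The ratio was 20.4 with a 95% counting interval of 6.61 to 102, and the adjusted p was 0.0132. DESeq2 did not call it, and the call ended without no disease replicate 1 (adjusted p = 0.0672) or 3 (0.0544). Mmp19, a secreted protease of basement membrane proteins, had 2.67, 2.98 and 2.84 CPM in no disease libraries and 7.31, 4.34 and 7.51 CPM at peak (log2 fold change 1.17 ± 0.25, adjusted p = 0.0227). The aggrecanase Adamts4 had 0.707, 0.674 and 0.737 CPM in no disease libraries and 2.55, 1.55 and 1.46 CPM at peak (log2 fold change 1.38 ± 0.34, adjusted p = 0.0379). Neither pair of groups overlapped, yet the call of Adamts4 ended in every fit without 1 library (adjusted p 0.057 to 0.124) and that of Mmp19 in all but the fit without peak replicate 2 (0.0649 to 0.0975). Exons of both overlap another gene.

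The gelatinase Mmp9 had 5.93, 3.14 and 6.01 CPM in no disease DRG and 10.6, 4.96 and 11.01 CPM at peak, overlapping and not called (log2 fold change 0.81 ± 0.40, adjusted p = 0.241). Mmp14 had 19.9, 19.1 and 16.7 and 25.2, 19.9 and 23.4 CPM and was not called (log2 fold change 0.30 ± 0.12, adjusted p = 0.152). Its groups all but touched, with 19.86 CPM in no disease replicate 1 and 19.90 CPM in peak replicate 2. The 10 macrophage markers summed to 135, 147 and 142 CPM in no disease libraries and 290.1, 202 and 263 CPM at peak, with 7 higher and 0 lower, and the 7 fibroblast markers to 1156, 1329 and 1419 and 2987, 1252 and 2124 CPM, with 3 higher and 0 lower. The Schwann cell markers summed to 3233, 3898 and 4431 CPM with no disease and 5788, 6216 and 6248 CPM at peak. For the sensory neuron markers the sums were 12294, 10368 and 11882 CPM and 8401, 9486 and 8752 CPM. Neither sum overlapped between the groups, but single markers such as Sox10 and Prph did, and S100b was lower in every peak library. None of these markers was at 0 in a group, and their part in the rises was not tested.

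In DRG in recovery 2 members were higher (Timp1 and Adamts20) and 1 lower (Adamts17) than with no disease, where 2.89% of all genes tested were called, 2.09% higher and 0.799% lower. Timp1 had 2.01, 3.05 and 3.596 CPM, above every no disease library (log2 fold change 1.45 ± 0.31, adjusted p = 0.04). Adamts20 had 50.2, 60.1 and 53.9 CPM, between the no disease and the peak libraries and apart from both (log2 fold change 0.89 ± 0.12, adjusted p = 0.0126). Adamts17 had 6.58, 6.01 and 5.62 CPM in no disease libraries, 7.45, 7.13 and 6.56 CPM at peak and 3.503, 3.54 and 3.72 CPM in recovery, where each library lay below those of the other stages (log2 fold change -0.76 ± 0.14, adjusted p = 0.028). Without recovery replicate 1 the count was 9 higher and 2 lower, adding Adamts10, Mmp2, Mmp9, Mmp12, Mmp14, Mmp19, Mmp23 and, as lower, Adamts3. In that library the 9 neutrophil markers summed to 63.8 CPM, against 567 and 490.2 CPM in the other recovery libraries. Sums of macrophage (149.5 against 276 and 261 CPM) and fibroblast markers (1358 against 1944 and 2159 CPM) were also lowest there. That of sensory neuron markers was highest there (10795 against 8503 and 9069 CPM). The part of these cells was not tested. Without any other library the count was 0 or 1 higher and 0 lower. The 1 was Adamts20, without no disease replicate 3.

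Several members that were not called had higher means in DRG in recovery than with no disease. Mmp2 had 28.4, 36.9 and 36.3 CPM (log2 fold change 0.47 ± 0.16, adjusted p = 0.117), and Mmp14 had 21.4, 25.9 and 24.7 CPM (log2 fold change 0.37 ± 0.12, adjusted p = 0.102). For both, every recovery library lay above every no disease library. Mmp9 had 6.23, 16.5 and 11.4 CPM (log2 fold change 1.18 ± 0.39, adjusted p = 0.116), also above its no disease libraries. Mmp12 had 0.155, 0.773 and 0.334 CPM, or 30 counts against 3, a ratio of 7.92 with a 95% interval of 2.46 to 40.6. Timp2 had 283, 214 and 222 CPM (log2 fold change 0.00 ± 0.13, adjusted p = 0.997), Timp3 369, 412 and 444 CPM (log2 fold change 0.23 ± 0.10, adjusted p = 0.224) and Timp4 0.515, 0.447 and 0.4599 CPM (log2 fold change 0.08 ± 0.61, adjusted p = 0.955).

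Against peak, 2 members were lower in DRG in recovery (Mmp16 and Adamts17) and 0 higher, where 0.137% of all genes tested were called, 0.103% lower and 0.0343% higher. At an unadjusted p under 0.05 there was 1 higher and there were 7 lower, and DESeq2 called 3 lower and limma-voom 1, both with 0 higher. Mmp16 had 32.3, 30.7 and 28.3 CPM in recovery, inside a narrow range that overlapped no disease and lay below every peak library (log2 fold change -0.95 ± 0.13, adjusted p = 0.04). Adamts17 fell with it (log2 fold change -0.97 ± 0.14, adjusted p = 0.04). Both calls ended without peak replicate 2 or 3 or recovery replicate 2 or 3, with adjusted p for Mmp16 from 0.103 to 0.175, and that of Adamts17 also without peak replicate 1. For the inhibitors and gelatinases the log2 fold changes of recovery against peak were -0.42 ± 0.28 for Timp1, -0.13 ± 0.13 for Timp2, 0.20 ± 0.10 for Timp3, -1.37 ± 0.55 for Timp4, -0.46 ± 0.16 for Mmp2 and 0.37 ± 0.38 for Mmp9. Those of Mmp12 and Mmp14 were -1.39 ± 0.54 and 0.07 ± 0.12, none of them called.

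**Figure D4:**
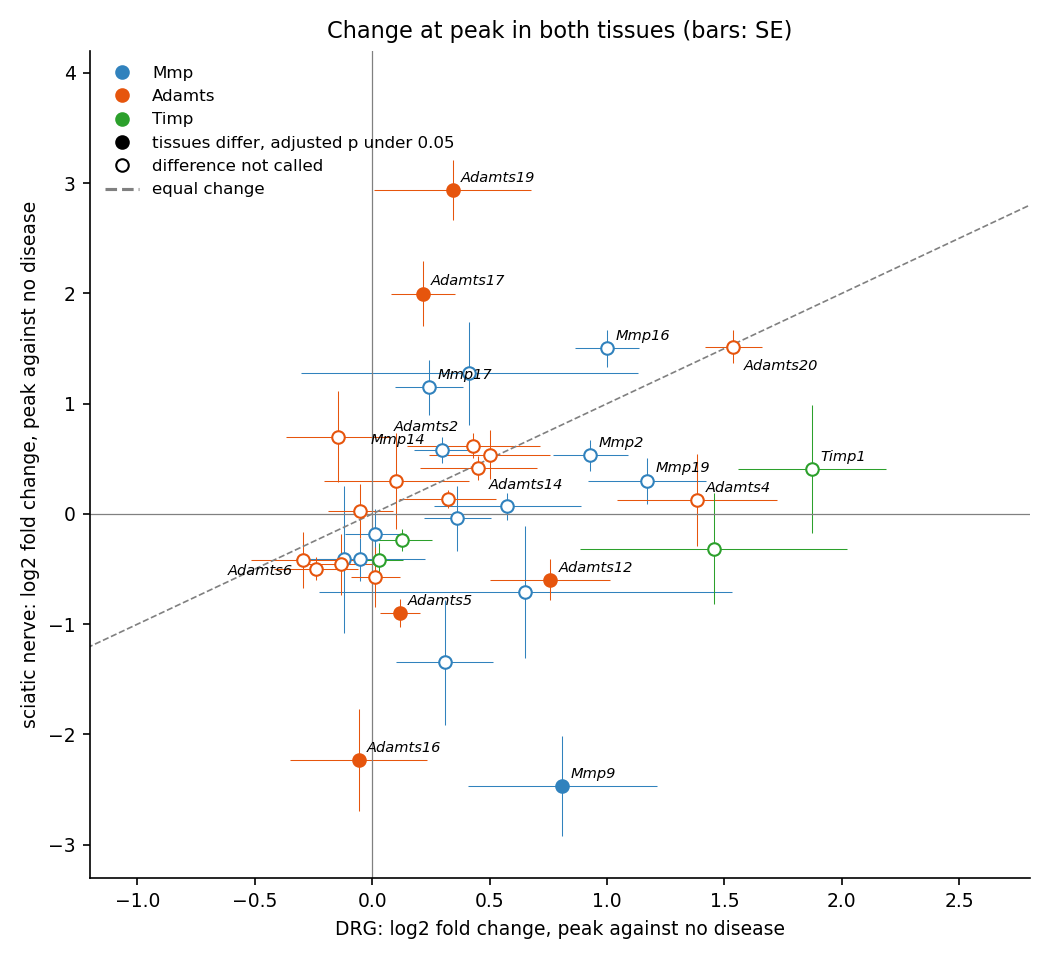
Points are the tested members except Mmp3, Mmp12 and Mmp27, which had 3 or fewer counts in a DRG group; the horizontal axis is the log2 fold change at peak in DRG and the vertical axis that in sciatic nerve, with SE bars. Filled points are the 6 genes whose changes differ between tissues at an adjusted p under 0.05; Adamts19 and Adamts17 lie above the line of equal change and Mmp9, Adamts16, Adamts12 and Adamts5 below it.

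The change at peak differed between nerve and DRG for 6 of 39 members, 2 with a higher and 4 with a lower value in nerve, where 15.9% of all genes tested were called, 6.53% with a higher and 9.36% with a lower value. The differences, nerve change minus DRG change on the log2 scale, were 2.53 ± 0.43 for Adamts19 (adjusted p = 0.00144) and 1.72 ± 0.33 for Adamts17 (adjusted p = 0.0033). In DRG, Adamts19 had 0.816, 1.29 and 0.681 CPM in no disease libraries and 1.07, 1.36 and 1.09 CPM at peak, which overlapped (0.34 ± 0.34), and Adamts17 had a log2 fold change of 0.22 ± 0.14 and was not called. The lower values were -3.36 ± 0.68 for Mmp9 (adjusted p = 0.00453), -2.25 ± 0.59 for Adamts16 (0.0186), -1.43 ± 0.34 for Adamts12 (0.0118) and -1.09 ± 0.17 for Adamts5 (0.000761). Adamts5 had 77.5, 93.4 and 89.3 CPM in no disease DRG and 96.9, 98.9 and 86.4 CPM at peak (log2 fold change 0.12 ± 0.09, adjusted p = 0.43), and Adamts12 had 6.802, 7.24 and 7.03 and 16.2, 8.93 and 10.5 CPM (log2 fold change 0.76 ± 0.25, adjusted p = 0.0991). All 6 were called in each of the other settings tried, with adjusted p up to 0.0482 for Adamts16. Without nerve no disease replicate 1 the difference was -2.53 for Mmp9 and -1.55 for Adamts16.

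Adamts20, called higher at peak in both tissues, had a difference of -0.08 ± 0.19 (adjusted p = 0.806), and Mmp2 one of -0.47 ± 0.23 (0.183). That of Mmp16 was 0.44 ± 0.23 (0.207) and that of Mmp14 0.22 ± 0.18 (0.435). For Mmp12 the difference was 0.55 (0.897). For the inhibitors the differences were -1.51 ± 0.83 for Timp1, -0.43 ± 0.18 for Timp2, -0.51 ± 0.19 for Timp3 and -1.84 ± 0.88 for Timp4, with a lowest adjusted p of 0.0814. Without nerve no disease replicate 1 the difference of Timp1 was -2.02 and called (adjusted p = 0.00902), and 7 members were lower. Without nerve peak replicate 3, 7 were also lower, among them Timp3 (adjusted p = 0.0321) and Timp4 (0.0409), and without DRG peak replicate 3 Timp2 was called lower (0.0396).

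Mmp8 and Mmp9 are proteases that neutrophils store, and their levels were set beside the 9 neutrophil markers in every library. Mmp8 had 9.96, 3.59 and 10.1 CPM in no disease DRG, 7.18, 4.52 and 20.1 CPM at peak and 2.99, 23.5 and 19.9 CPM in recovery. The marker sums in the same libraries were 196, 65.97 and 178 CPM, 173, 108 and 415 CPM and 63.8, 567 and 490.2 CPM, with the lowest Mmp8 and the lowest sum of each DRG stage in the same library. In nerve, peak replicates 1 and 2 had the highest Mmp8 of that tissue, while the marker sums at peak, 0.760, 2.28 and 0.4599 CPM, lay below every no disease library. The lowest Mmp9 of each DRG stage also lay in the library with the lowest sum. In no disease nerve, however, replicate 1 had the highest Mmp9 (25.7 CPM) at a sum of 10.8 CPM. Replicate 3 had the lowest Mmp9 (7.42 CPM) at the highest sum, 24.9 CPM. The part of neutrophils in either gene's level was not tested.

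**Figure D5:**
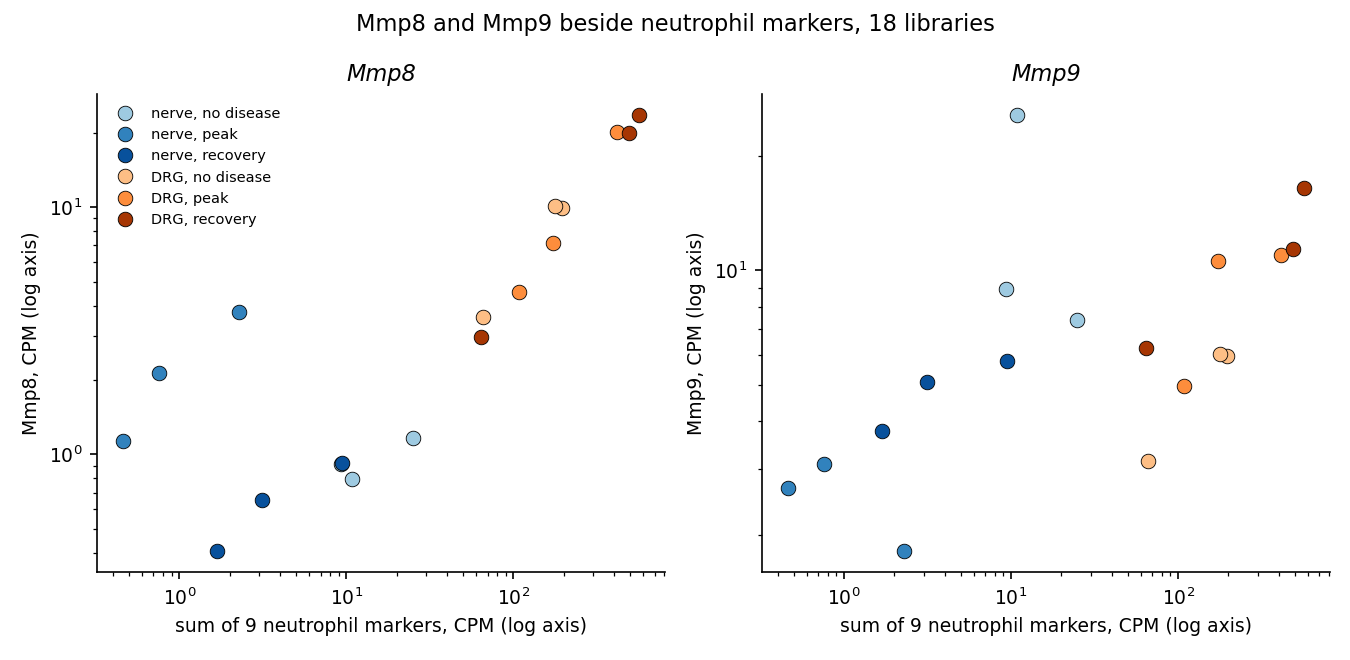
Each point is 1 of the 18 libraries, with the summed level of 9 neutrophil markers in CPM on the horizontal log axis and the level of Mmp8 (left) or Mmp9 (right) in CPM on the vertical log axis, coloured by tissue and stage. In DRG the libraries with the highest sums, recovery replicate 2 and 3 and peak replicate 3, also had the highest Mmp8. In no disease nerve the library with the highest sum, replicate 3, had the lowest Mmp9 of its group.

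Other genes of pericellular proteolysis were counted from a list of 50, of which 48 were tested. In nerve at peak 14 rose and 14 fell, beside 13.8% and 10.8% of all genes tested, and in DRG at peak 11 rose and 3 fell, beside 3.74% and 3.46%. Against no disease in recovery, 1 was higher and 0 lower in nerve by edgeR (0.577% and 0.331% of all genes tested), and 3 were higher and 1 lower in DRG (2.09% and 0.799%). At an unadjusted p under 0.05, 10 of the list were lower in nerve, a count that cannot be set against those shares. The lysosomal proteases Ctss and Ctsb changed in nerve at peak by 3.19 ± 0.29 and 1.62 ± 0.15 (adjusted p = 6.92e-05 and 9.39e-05), and Ctss was the 1 higher gene in nerve in recovery (1.57 ± 0.28, adjusted p = 0.0326). The broad protease inhibitor A2m rose in nerve by 1.32 ± 0.18 and in DRG by 0.79 ± 0.19 (adjusted p = 0.000612 and 0.0322). Reck, a membrane inhibitor of Mmp proteins, rose in DRG by 0.39 ± 0.08 (adjusted p = 0.0206) and was not called in nerve (0.00 ± 0.10, adjusted p = 0.993). Comp, a matrix protein cut by Adamts7 and Adamts12, fell in nerve by 2.55 ± 0.23 on the log2 scale (adjusted p = 7.09e-05), and Lcn2, which binds Mmp9, fell by 2.49 ± 0.44 (adjusted p = 0.00301).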

How the data were processed

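Libraries were made from mRNA (SMARTER kit, per the labels). STAR 2.6.1a, kallisto 0.44.0 and Bowtie2 with the builds GRCm38 and mm10 are listed in the submitters' processing notes, without saying which made what; annotation and strandedness are not given there. All fits started from the raw counts per Ensembl gene that the authors deposited. Their normalised signal, per the file headers, is proportional to the counts within a library (relative departure at most 5.11e-15). The authors' table gives log2 ratios and adjusted p-values (q-values), per the file headers, and served only to compare calls.

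Genes with at least 10 counts in 3 or more of 18 libraries were tested. Each tissue was fitted on its 9 libraries in edgeR 4.0.16 under R 4.3.3 (TMM, quasi-likelihood F test, Benjamini-Hochberg adjustment over all genes tested, adjusted p under 0.05). Comparisons between tissues used 1 fit of all 18. The SE is the log2 fold change divided by the square root of F. Counting intervals and the floor of 3 counts per group cover counting error only. The code was tested on simulated data. Positions and exon lengths come from GENCODE vM21 on GRCm38, and promoter windows from RefSeq on GRCm38.p6. Within a tissue, members are described with values in every library where adjusted p was under 0.05 (at most the 6 largest changes each way being required). Timp1 to Timp4, Mmp2, Mmp9, Mmp12 and Mmp14 are followed in every comparison. Between tissues many members are given by the log2 difference, a count ratio or the call alone. Members, marker lists and the list of 50 were chosen with earlier results of these data known. The labels give no pairing of libraries, and the main fits used none. Same-numbered deviations of no disease and recovery nerve libraries correlated at 0.237, 0.144 and 0.223, all over 0.1. No other pair of groups compared within a tissue met this. Each recovery nerve library also went best with its own number in no disease DRG (0.11, 0.091 and 0.071), so these correlations do not settle a pairing. The replicate number as a block was therefore an alternative only. Alternatives were RLE scaling, other filters, DESeq2 1.42.0, limma-voom 3.58.1, 1 fit of 18 libraries, the block, and leaving out each library. No 2 libraries of a group agreed within sampling noise.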

Additional observations from a re-analysis of the deposited data

Results flagged for a closer look

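The change at peak in nerve differed from that in DRG for 6 members in a test of the difference itself. The difference, nerve minus DRG on the log2 scale, was -3.36 for Mmp9 (SE 0.68, adjusted p = 0.00453), -2.25 for Adamts16 (SE 0.59, adjusted p = 0.0186), -1.43 for Adamts12 (SE 0.34, adjusted p = 0.0118) and -1.09 for Adamts5 (SE 0.17, adjusted p = 0.000761). It was 1.72 for Adamts17 (SE 0.33, adjusted p = 0.0033) and 2.53 for Adamts19 (SE 0.43, adjusted p = 0.00144). In edgeR's quasi-likelihood test 15.9% of all genes tested were called in this comparison.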

How the results depend on the processing

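Counts of called members moved by over 1.5 times in these cases. In recovery nerve against no disease, 0 were higher with limma-voom, with the replicate block and without any 1 library (0 to 0), and lower members numbered 2 with no filter, 3 with DESeq2 and 1 in the fit of all 18 libraries. In recovery nerve against peak, DESeq2 called 7 higher, and leaving out 1 library gave 2 to 5. In DRG at peak, leaving out 1 library gave 3 to 7 higher. In DRG in recovery against no disease, 4 were higher with no filter, 4 with DESeq2, 1 with limma-voom and 1 in the fit of all 18, where 0 were lower, and leaving out 1 library gave 0 to 9 higher and 0 to 2 lower. In DRG in recovery against peak, 1 was lower with limma-voom, 1 in the fit of all 18 and 1 with the replicate block (Adamts20, while Mmp16 and Adamts17 were lost), and 0 to 3 without 1 library. For the tissue difference, leaving out 1 library gave 4 to 7 lower. The cause was not tested.

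Among the results and alternatives run, signs turned only for members not called. With 1 library left out, the log2 fold change at peak in nerve ranged from -0.12 to 1.13 for Timp1 and -1.03 to 0.06 for Timp4, and in recovery nerve from -1.10 to 0.15 for Timp1 (0.03 with limma-voom). Recovery against peak in nerve gave -0.02 to 0.06 for Timp2. In DRG the ranges were -0.06 to 0.12 for Timp3 at peak, -0.14 to 0.09 for Timp2 and -0.07 to 0.28 for Timp4 in recovery, and -0.02 to 0.15 for Mmp14 against peak. Timp2 in DRG in recovery was 0.01 with RLE scaling and DESeq2, and 0.02 with filterByExpr, no filter and the tissue's own filter. The tissue difference of Mmp12 ranged from -0.31 to 1.90.

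The replicate block, apart from the changes named, ended the calls of Adamts4 in DRG at peak and of Adamts6 and Mmp17 in nerve in recovery against peak, and added Mmp27 in both nerve comparisons with peak; it changed no other call. Outside this block, equal replicate numbers were not read as pairs. Of the members called in the authors' deposited table, 14 of 15 were called here in nerve at peak, 1 of 6 in recovery against no disease and 15 of 21 against peak; in DRG these were 7 of 8, 3 of 6 and 2 of 3, and between the tissues with no disease 33 of 35. Low counts limit Mmp3, Mmp12 and Mmp27 in DRG. In nerve, counts were also low for Mmp13, Mmp24, Mmp25 and Adamts18.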
